A study of Saccharomyces cerevisiae with 32 samples.

Results

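The mRNA levels of budding yeast lacking *YGR054W*, the gene of the translation factor eIF2A, were compared with those of the wild type. The comparison takes all RNA-Seq libraries that the sample labels assign to either strain, which are 8 of the 32 libraries of the series. RNA-Seq and Ribo-Seq data were collected for *eif2aΔ*, *tma46Δ*, *stm1Δ* and *wt*, with 4 replicates per strain and assay. The *eif2aΔ* strain was a *YGR054W* knockout of the Yeast Gene Deletion Collection, and *wt* was its parent BY4742 (*MATα his3Δ1 leu2Δ0 lys2Δ0 ura3Δ0*), so both strains carry these 4 auxotrophic markers. Cells were taken in exponential growth, and mRNA was isolated with oligo(dT) beads from a portion of the lysate that also served for Ribo-Seq. The study's methods give YPD as the medium, while the labels name YPD or SD without assigning either to a library. The labels place cycloheximide in the medium before harvest, and the methods name it in the buffers. The labels do not say whether the replicates of a strain were separate cultures, so the p-values below measure the spread between libraries. That spread was taken from the 16 RNA-Seq libraries of all 4 strains, and not from these 8 alone.

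The eukaryotic translation factor eIF2A binds initiator tRNA and has been studied as an alternative to eIF2 at certain start codons, and yeast cells without it grow. It has no subunit in common with the eIF2 complex despite the similar name. Iron is one of the nutrients to which the yeast transcriptome responds strongly: the activators Aft1 and Aft2 switch on genes of siderophore and reductive iron uptake, and mRNAs of iron-using proteins of respiration and amino acid synthesis are lowered when iron is short. Respiration, sterol synthesis and cell wall mannoproteins also respond to heme and oxygen.

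The *eif2aΔ* replicates 1 to 4 came from batches 3, 4, 5 and 6 of the labels, and the *wt* replicates 1 to 4 from batches 1, 2, 3 and 4. Both strains were therefore present in batches 3 and 4. Counts on genes ranged from 4555952 to 5567240 per *eif2aΔ* library (median 4656629) and from 4215500 to 6334413 per *wt* library (median 5125290), and 10 CPM (read counts scaled to the size of the library) was 42.2 reads in the shallowest library. Values per library below are TMM-normalized CPM in the order of the replicate numbers. Each gene was tested with edgeR's quasi-likelihood test with terms for batch and strain over the 16 RNA-Seq libraries of all 4 strains, and a gene was called at a Benjamini-Hochberg FDR under 0.05. In an unweighted linear fit with these terms, *eif2aΔ* replicates 1, 2, 3 and 4 carry weights of 0.4, 0.371, 0.229 and 0 in the contrast, and *wt* replicates 1 to 4 carry weights of -0.143, -0.143, -0.343 and -0.371. The *tma46Δ* replicates 1 to 4 enter the same contrast with weights of 0.143, 0.143, -0.0571 and -0.229, and *eif2aΔ* replicate 3 enters it only through *tma46Δ* replicate 4 of its batch. Replicate 4 of *eif2aΔ* has no weight because it shared batch 6 with an *stm1Δ* library only.

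*YGR054W* (chromosome VII, 596693 to 598621, plus strand, R64) had 1, 2, 2 and 1 reads in the *eif2aΔ* libraries and 1082, 1558, 1185 and 1228 reads in the *wt* libraries. The 8 libraries therefore carried the genotype their labels give. The pooled *eif2aΔ* level was 0.125% of the *wt* level (95% exact interval 0.0459% to 0.272%, counting error only). Of the neighbouring genes, *MUP1*, a methionine permease, had a log2 fold change of -0.23 (standard error 0.08, FDR 0.227 by edgeR) and *RSC1*, a chromatin remodeler subunit, one of 0.07 (standard error 0.10, FDR 0.812). On the other side, *FMP48* had 6.77 to 7.85 CPM in *eif2aΔ* and 7.35 to 9.16 CPM in *wt*, and *MCO32* had 3.42 to 6.57 CPM in *eif2aΔ* and 3.12 to 4.79 CPM in *wt*. Both were below the expression filter, and their groups overlapped. The summed level of 4 α-cell markers was 735 to 1634 CPM in *eif2aΔ* and 936 to 1441 CPM in *wt*, and that of 7 **a**-cell markers 31.8 to 40.2 CPM in *eif2aΔ* and 22.9 to 32.9 CPM in *wt*, so the libraries of both strains had the markers of the labelled mating type. The nuclear chromosomes had median log2 fold changes of -0.037 to 0.020.

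Of 4625 genes tested, 21 were called, which is 0.454%: 9 genes were higher in *eif2aΔ* (0.195%) and 12 lower (0.259%), with *YGR054W* among the 12. The higher genes were *YHB1*, *TIP1*, *ENB1*, *ARO10*, *LSO1*, *ARN1*, *FRE3*, *LYS20* and *YGL039W*, and the lower genes other than the deleted one were *EEB1*, *MDH2*, *URA1*, *ATP19*, *ARO3*, *SMF1*, *HSP12*, *HXT4*, *ARG1*, *COX6* and *ACO1*. They encode iron uptake proteins, enzymes of amino acid and nucleotide synthesis, enzymes of ester and alcohol formation, mitochondrial proteins and proteins of carbon source use and stress. Apart from *YGR054W*, *LSO1* and *HSP12*, the called changes lay between -0.91 and 1.03 on the log2 scale. The median over all genes was 5.5e-05 and the median standard error 0.113. At an unadjusted p under 0.05, 276 genes (5.97%) were higher and 356 (7.7%) lower, and 50% of all genes had a positive and 50% a negative log2 fold change. The number of calls depended on how batches were handled and on single libraries: it was 959 after the batch correction of the study (ComBat-seq), 205 in the libraries of batches 3 and 4 alone, 15 without a batch term, and 4 to 22 when 1 library was left out.

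**Figure D1:**
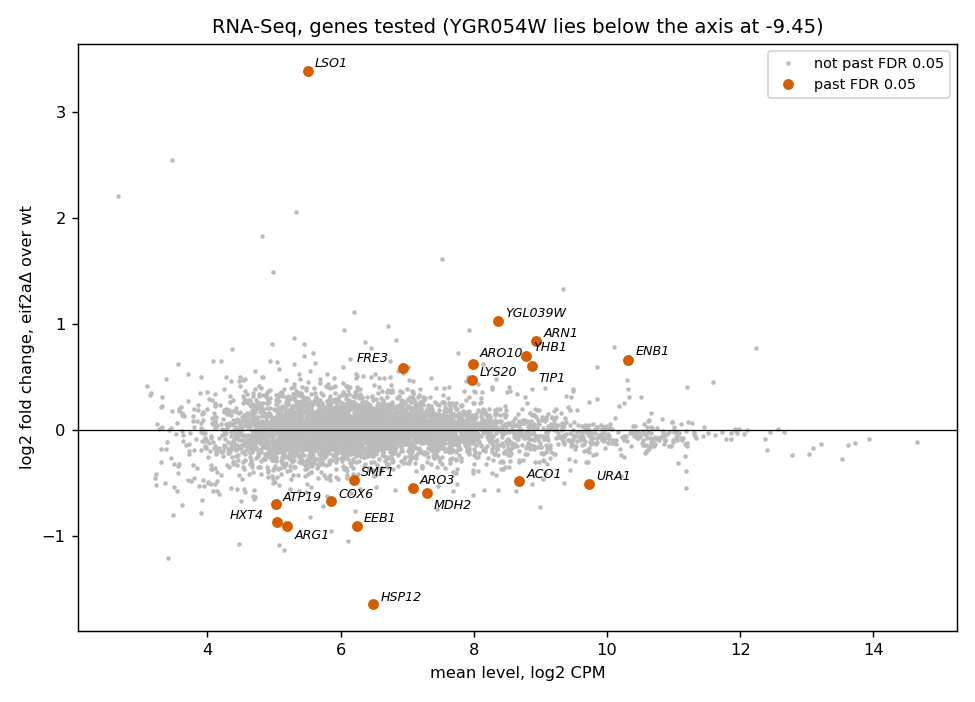
Log2 fold change of *eif2aΔ* over *wt* (vertical axis) against the mean level in log2 CPM (horizontal axis) for each gene tested in RNA-Seq, with the called genes in orange and named. *LSO1* at 3.39 and *HSP12* at -1.65 stand farthest from 0 among the called genes drawn, and several uncalled genes of low level lie above 1.5.

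The groups did not overlap, that is, all 4 *eif2aΔ* libraries lay on one side of all 4 *wt* libraries, for 3 of the 9 higher genes (*YHB1*, *TIP1* and *LYS20*) and for 7 of the 12 lower genes (*YGR054W*, *EEB1*, *MDH2*, *URA1*, *HSP12*, *HXT4* and *ARG1*). Over all genes tested, 3.2% lay wholly above and 3.5% wholly below. The other 11 called genes overlapped between the strains, and their calls rest on comparisons within batches. All 21 called genes had the same sign in batch 3 and in batch 4, where 29.8% of all genes were higher and 29.8% lower in both batches. These 4 libraries carry most of the weight in the contrast that called the genes, so the shared sign is a description and not a further test.

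**Figure D2:**
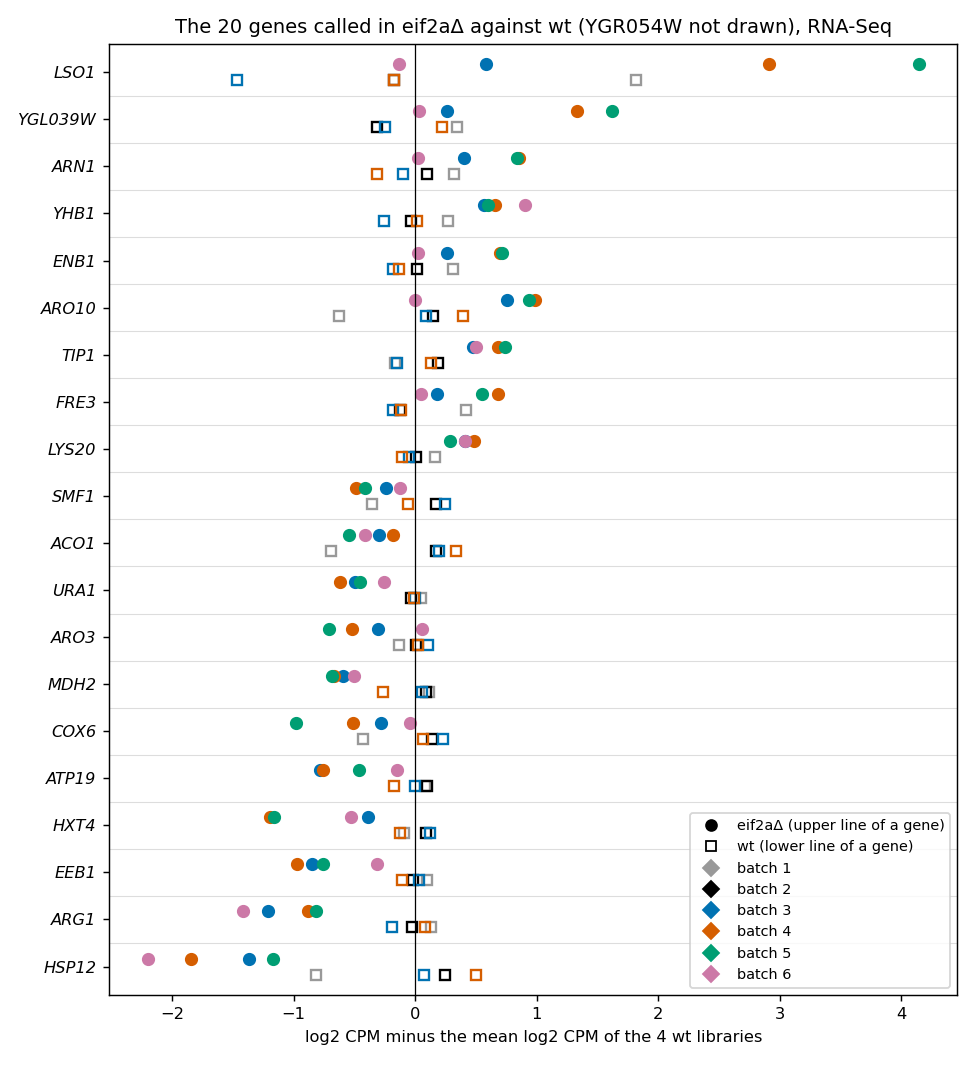
Log2 CPM of the called genes other than *YGR054W* in each library, minus the mean of the 4 *wt* libraries (horizontal axis). Each gene has the 4 *eif2aΔ* libraries as filled circles on its upper line and the 4 *wt* libraries as open squares on its lower line, with colours for batches. *LSO1*, *ARN1*, *ENB1* and *FRE3* have *eif2aΔ* replicates 2 and 3 to the right and *wt* replicate 1 among the highest *wt* points.

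*YHB1* (chromosome VII, 959904 to 961103, plus strand) encodes flavohemoglobin, which detoxifies nitric oxide. Its level was 537, 573, 550 and 679 CPM in *eif2aΔ* and 439, 355, 304 and 368 CPM in *wt*. Every *eif2aΔ* library was above every *wt* library, with means ± SD over 4 libraries of 584 ± 64.6 CPM in *eif2aΔ* and 367 ± 55.7 CPM in *wt*. By edgeR it rose by 0.69 on the log2 scale (standard error 0.09, FDR 0.00245), and the same-batch differences were 0.82 in batch 3 and 0.64 in batch 4. *YHB1* was called under each alternative analysis tried, although some of these repeat the same comparison, as given below. *SSU1*, a sulfite exporter that shares with *YHB1* the activator Fzf1, had a log2 fold change of -0.35 (FDR 0.124), and *FZF1* itself had one of 0.50 (FDR 0.116).

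*TIP1*, a cell wall mannoprotein of the TIR family, had 523, 603, 628 and 533 CPM in *eif2aΔ* and 334, 429, 339 and 412 CPM in *wt*. It rose by 0.60 on the log2 scale (standard error 0.09, FDR 0.00806 by edgeR), with no overlap between the strains. *TIR1*, another mannoprotein of that family, had 105, 304, 380 and 83.3 CPM in *eif2aΔ* and 170, 50.9, 43.7 and 98.3 CPM in *wt*. Its log2 fold change of 1.61 (standard error 0.40) did not pass (FDR 0.0985), and its groups overlapped. Of the 14 genes of the anaerobic cell wall and hypoxic list, 8 were tested, 0 were called by edgeR, and at an unadjusted p under 0.05 2 were higher and 0 lower. The median of its log2 fold changes was 0.38.

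*EEB1* (chromosome XVI, 368071 to 369441, minus strand) encodes an acyltransferase that forms ethyl esters of medium-chain fatty acids. It had 51.1, 46.8, 54.3 and 74.0 CPM in *eif2aΔ* and 98.2, 90.8, 94.2 and 85.3 CPM in *wt*. Its groups did not overlap, and it fell by 0.91 on the log2 scale (standard error 0.11, FDR 0.00181 by edgeR). The *stm1Δ* libraries, which shared no batch with *wt*, were also low for *EEB1*, at 58.1 to 64.5 CPM, while the *tma46Δ* libraries had 73.3 to 97.4 CPM. *ARO10*, the phenylpyruvate decarboxylase of the Ehrlich pathway that turns amino acids into fusel alcohols, had 348, 408, 394 and 206 CPM in *eif2aΔ* and 133, 229, 219 and 271 CPM in *wt*. It was called higher at 0.62 (standard error 0.09, FDR 0.0120), although *eif2aΔ* replicate 4 lay within the *wt* range. *YGL039W*, an aldehyde reductase, had 260, 547, 670 and 223 CPM in *eif2aΔ* and 276, 175, 183 and 253 CPM in *wt*. Its call at 1.03 (standard error 0.21, FDR 0.0487) came with high values in *eif2aΔ* replicates 2 and 3 only. *ATF1*, the alcohol acetyltransferase, was among the genes closest to the threshold, with 120, 190, 188 and 117 CPM in *eif2aΔ* and 82.4, 77.4, 86.7 and 87.0 CPM in *wt*. Its log2 fold change of 0.85 (standard error 0.18, FDR 0.0595) did not pass, although all *eif2aΔ* libraries were above all *wt* libraries.

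Of the higher calls, *ENB1*, *ARN1* and *FRE3* were iron uptake genes, and *LSO1* was in the list of other targets of Aft1 and Aft2. *ENB1* and *ARN1* encode plasma membrane transporters of the siderophores enterobactin and ferrichrome, and *FRE3* a reductase of siderophore-bound iron. *LSO1* encodes a small ribosome-associated protein whose gene is switched on by Aft1 under iron shortage. Upstream of each of them, within the 500 bases before the start codon, lies the heptamer TGCACCC. It is a longer form of the core GCACCC that Aft1 recognizes. These 4 genes are iron uptake genes or listed Aft1 and Aft2 targets, so a shared Aft1 site is not a further result. The stretches that hold the heptamer are shown as a description. They are written 5′ to 3′ on the strand of the gene from the RefSeq R64 genome, with the heptamer in capitals:
LSO1 (chrX:448887-448913, minus strand): tcgagaatgtTGCACCCttttttccaa
ENB1 (chrXV:21488-21514, minus strand): tttaaattatTGCACCCaaatgtgata
ENB1 (chrXV:21432-21458, minus strand): ggcttacaatTGCACCCctctgtggct
ARN1 (chrVIII:21215-21241, minus strand): tttatcaaaaTGCACCCataaaagcag
FRE3 (chrXV:1055108-1055134, plus strand): ttttgtaaaaTGCACCCatatctcatt

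With both strands searched, TGCACCC occurred in 2.36% of the 5898 upstream windows of protein-coding genes. It occurred in 4 of the 9 genes called higher and in 0 of the 12 called lower. Among the iron lists, it was present in 7 of 7 siderophore uptake genes, 12 of 14 reductive uptake genes, 4 of 9 other targets of Aft1 and Aft2, and 0 of 23 genes of iron-using proteins. The core GCACCC alone occurred in 7.73% of the windows, in 4 of the 9 genes called higher and in 1 of the 12 called lower. It was in 7 of 7 siderophore, 13 of 14 reductive, 6 of 9 other target and 1 of 23 iron-using genes. Among the lower calls and the iron-using genes, the gene with the core was *ACO1*. The uptake and target lists hold genes that Aft1 and Aft2 switch on, so high shares there are not a further test. Such a match describes the sequence and does not show binding.

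*LSO1* (chromosome X, 448477 to 448758, minus strand) had 12.6, 63.3, 149 and 7.67 CPM in *eif2aΔ* and 29.6, 7.44, 3.05 and 7.47 CPM in *wt*. The spread within *eif2aΔ* was therefore larger than the difference between the means ± SD over 4 libraries, 58.1 ± 65.5 CPM in *eif2aΔ* and 11.9 ± 11.99 CPM in *wt*. The fitted change was 3.39 (standard error 0.58, FDR 0.0235 by edgeR), with same-batch differences of 1.92 in batch 3 and 3.02 in batch 4. Replicate 4 of *eif2aΔ*, which carries no weight in that fit, lay at the level of *wt* replicates 2 and 4. The other strains spanned a similar range, as the *tma46Δ* libraries ran from 6.63 to 72.5 CPM and the *stm1Δ* libraries from 16.1 to 160 CPM. *LSO2*, the paralog with a role in ribosome dormancy, had a log2 fold change of 0.15 (FDR 0.647).

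*ENB1* had 1202, 1626, 1644 and 1020 CPM in *eif2aΔ* and 1244, 1014, 882 and 915 CPM in *wt*, a change of 0.66 (standard error 0.10, FDR 0.00939 by edgeR). *ARN1* had 449, 616, 610 and 345 CPM in *eif2aΔ* and 423, 364, 318 and 274 CPM in *wt*, a change of 0.84 (standard error 0.15, FDR 0.0250). *FRE3* had 110, 156, 142 and 100 CPM in *eif2aΔ* and 130, 89.1, 85.8 and 89.7 CPM in *wt*, a change of 0.59 (standard error 0.11, FDR 0.0286). In all 3 genes *eif2aΔ* replicates 2 and 3 were the highest of the 8 libraries, *wt* replicate 1 was the highest *wt* library, and the strains overlapped.

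The library order recurred among the remaining siderophore genes. Of the 7 siderophore uptake genes, 2 were called higher and 0 lower, 7 had positive log2 fold changes, and the median was 0.77. At an unadjusted p under 0.05 by edgeR, 7 were higher and 0 lower. *FIT1*, *FIT2* and *FIT3* encode cell wall mannoproteins that retain siderophores, and had log2 fold changes of 1.33 (FDR 0.152), 0.45 (FDR 0.147) and 0.77 (FDR 0.0986), none of which passed. *FIT1* had 151, 864, 1080 and 165 CPM in *eif2aΔ* and 531, 144, 118 and 339 CPM in *wt*. *ARN2*, the transporter of triacetylfusarinine C, had a log2 fold change of 0.78 (FDR 0.0852), and *SIT1*, that of ferrioxamine, one of 0.29 (FDR 0.342). In 6 of the 7 genes, *eif2aΔ* replicates 2 and 3 both exceeded all *wt* libraries (*ARN2* was the exception), and in 7 of 7, *wt* replicate 1 was the highest of the *wt* libraries. The shares of these orders over all genes tested were not computed. The order of the *eif2aΔ* replicates was not particular to iron genes. Of 34 genes of ergosterol and fatty acid synthesis, replicates 2 and 3 both exceeded all *wt* libraries in 23 and were both below them in 2.

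Reductive uptake, in which surface reductases free ferrous iron for the Fet3 and Ftr1 oxidase and permease, had smaller values. Of 14 genes 1 was called higher (*FRE3*), 13 were positive, and 6 were higher and 0 lower at an unadjusted p under 0.05. The median log2 fold change of the 14 was 0.27. That median was 0.13 with no batch term, 0.16 without *eif2aΔ* replicate 2 or without *wt* replicate 4, and 0.41 without *eif2aΔ* replicate 1. *FET3* had a log2 fold change of 0.40 (standard error 0.09, FDR 0.0617) and *FTR1* one of 0.47 (standard error 0.10, FDR 0.0617), and neither passed. Of the 9 other targets of Aft1 and Aft2, 8 were tested, with 6 higher and 0 lower at an unadjusted p under 0.05. Of the 8, 1 was called higher (*LSO1*) and 7 were positive, with a median of 0.42. Among them were *MRS4*, the mitochondrial iron carrier (0.49, FDR 0.0858), *ISU2*, the iron-sulfur scaffold (0.49, FDR 0.124), *HMX1*, the heme oxygenase (0.55, FDR 0.139), and *TIS11*, which encodes the mRNA decay factor Cth2 (0.36, FDR 0.313). The activators themselves had log2 fold changes of 0.24 for *AFT1* (FDR 0.447) and 0.014 for *AFT2* (FDR 0.977), and 0 of the 9 genes of iron sensing and storage were called by edgeR (0 higher and 2 lower at an unadjusted p under 0.05). *CCC1*, the vacuolar iron importer, had one of -0.45 (FDR 0.124).

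The genes of iron-using proteins lay on the other side of 0. Of 23 tested, 1 was called lower (*ACO1*), 0 were called higher, 18 were negative, and the median was -0.52. At an unadjusted p under 0.05 by edgeR, 1 was higher and 16 were lower. *ACO1*, mitochondrial aconitase with an iron-sulfur cluster, had 360, 389, 304 and 332 CPM in *eif2aΔ* and 273, 498, 506 and 558 CPM in *wt*. It fell by 0.49 on the log2 scale (standard error 0.10, FDR 0.0494 by edgeR), with *wt* replicate 1 below all the other 7 libraries. Larger log2 fold changes did not pass in *CYT1*, cytochrome c1 (-1.13, FDR 0.108), *GLT1*, glutamate synthase (-1.05, FDR 0.0841), *CCP1*, cytochrome c peroxidase (-0.96, FDR 0.0869), and *SDH3*, a subunit of succinate dehydrogenase (-0.72, FDR 0.0844). *GLT1* had 72.8, 32.9, 27.8 and 117 CPM in *eif2aΔ* and 54.3, 89.5, 90.7 and 102 CPM in *wt*, so here replicates 2 and 3 of *eif2aΔ* were the lowest and *wt* replicate 1 the lowest of *wt*. *wt* replicate 1 was the lowest *wt* library for 21 of the 23 genes. It was also the lowest for 28 of 38 genes of the respiratory chain and ATP synthase. The same held for 42 of 67 mitochondrial and 20 of 138 cytosolic ribosomal protein genes.

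The summed levels show the same order of libraries. The 7 siderophore genes summed to 8419, 15665, 17742 and 7189 CPM in *eif2aΔ* and to 12807, 8130, 6743 and 9376 CPM in *wt*, and the 23 genes of iron-using proteins to 4267, 3920, 3392 and 4415 CPM in *eif2aΔ* and to 3471, 4507, 4314 and 4471 CPM in *wt*. The siderophore sum of *eif2aΔ* was 1.25 times that of *wt* in batch 3 and 1.67 times in batch 4. In batch 5 it was 1.74 times that of the *tma46Δ* library, and in batch 6, where *eif2aΔ* shared the batch with *stm1Δ* replicate 1, it was 0.735 times that library. Batch 1 held *tma46Δ* and *wt* libraries with high sums of 15842 and 12807 CPM. With no batch term in the model, none of *ENB1*, *ARN1*, *FRE3*, *LSO1* and *ACO1* was called, with log2 fold changes of 0.44, 0.55, 0.37, 2.31 and -0.41 and FDR values of 0.309, 0.310, 0.429, 0.332 and 0.366 by edgeR. What sets the library order was not tested.

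**Figure D3:**
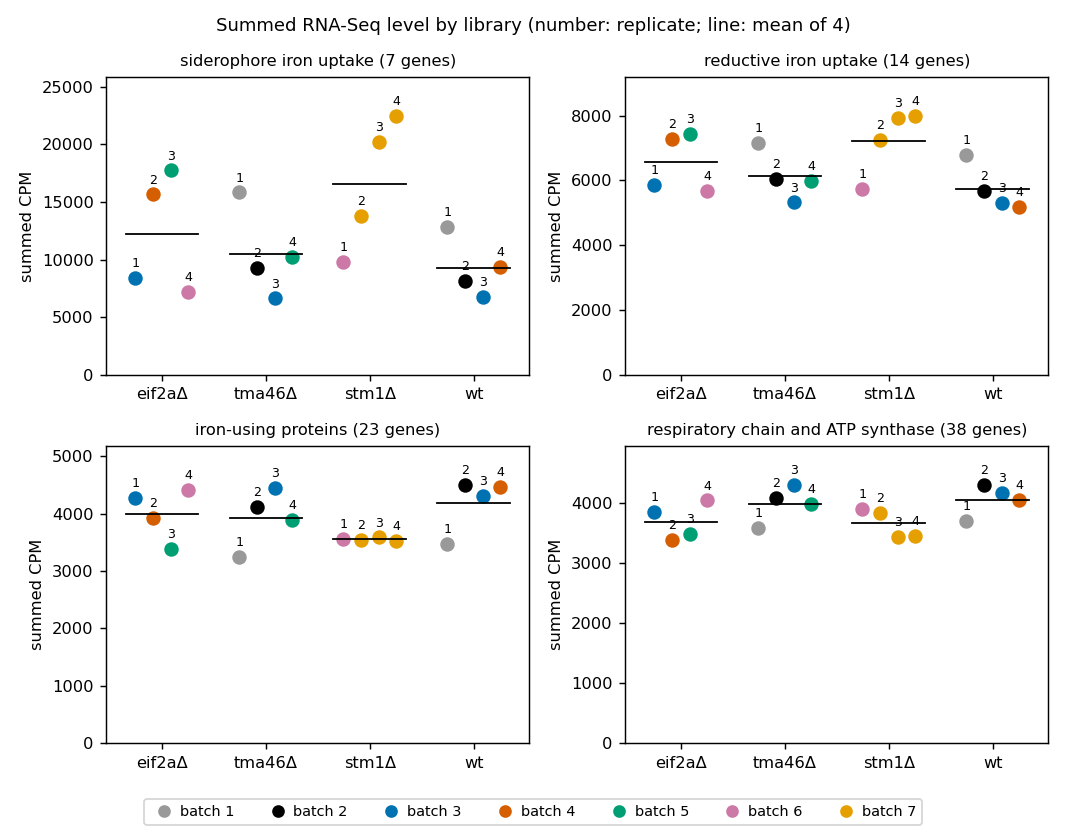
Summed RNA-Seq level in CPM (vertical axes, from 0) of 4 gene lists in each of the 16 RNA-Seq libraries, by strain (horizontal axes), with the replicate number above each point, colours for batches and a line at the mean of 4. For siderophore uptake, *eif2aΔ* replicates 2 and 3 (15665 and 17742 CPM) stand above the 4 *wt* libraries, while replicates 1 and 4 (8419 and 7189 CPM) lie within their range, and the *stm1Δ* libraries reach 22477 CPM.

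The list of the respiratory chain and ATP synthase shares members such as *CYT1* with that of iron-using proteins, so the 2 lists are not separate results. At an unadjusted p under 0.05 by edgeR, 0 of its genes were higher and 24 lower. These nuclear genes had negative log2 fold changes for 37 of 38 tested, with a median of -0.35, and 1 was called lower. That gene was *COX6*, a subunit of cytochrome c oxidase, with 54.9, 46.6, 33.8 and 64.5 CPM in *eif2aΔ* and 49.4, 73.4, 78.0 and 69.8 CPM in *wt* (log2 fold change -0.68, standard error 0.13, FDR 0.0434 by edgeR). *ATP19*, a small subunit of ATP synthase that was not in the list, had 20.6, 21.0, 25.9 and 32.0 CPM in *eif2aΔ* and 37.6, 38.0, 35.5 and 31.5 CPM in *wt*. It fell by 0.71 on the log2 scale (standard error 0.12, FDR 0.0235), and only *eif2aΔ* replicate 4 reached into the *wt* range. The list summed to 3847, 3389, 3489 and 4045 CPM in *eif2aΔ* and 3696, 4309, 4175 and 4046 CPM in *wt*, and *wt* replicate 1 was again the lowest of *wt*. Replicates 2 and 3 of *eif2aΔ* were both below all *wt* libraries for 25 of the 38 genes and both above them for 1. *HAP1*, a heme-responsive activator of respiratory genes, was the only positive member at 0.37 (FDR 0.379).

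Enzymes of amino acid and nucleotide synthesis gave 4 calls. *LYS20*, homocitrate synthase of the lysine pathway, had 294, 309, 270 and 294 CPM in *eif2aΔ* and 247, 221, 213 and 204 CPM in *wt*, and rose by 0.47 without overlap (standard error 0.09, FDR 0.0286 by edgeR). *ARG1*, argininosuccinate synthetase, had 19.5, 24.6, 25.7 and 16.9 CPM in *eif2aΔ* and 49.4, 44.5, 39.7 and 47.9 CPM in *wt*, with a log2 fold change of -0.91 (standard error 0.17, FDR 0.0305). On unstranded counts *ARG1* had a log2 fold change of -0.45 and was not called, and up to 111 reads per library were counted on its opposite strand. *ARO3*, an enzyme of the first step of aromatic amino acid synthesis, had 124, 107, 93.9 and 159 CPM in *eif2aΔ* and 140, 154, 165 and 156 CPM in *wt* (log2 fold change -0.55, standard error 0.10, FDR 0.0253). All *stm1Δ* libraries were also below every *wt* library, at 20.9 to 37.9 CPM for *ARG1* and 98.4 to 124 CPM for *ARO3*. The *tma46Δ* libraries had 41.6 to 53.9 CPM for *ARG1* and 122 to 161 CPM for *ARO3*. *LYS20*, *ARG1* and *ARO3* are targets of the activator Gcn4. Of 44 Gcn4 targets tested, 1 was called higher and 2 lower, and the median log2 fold change was -0.036. At an unadjusted p under 0.05, 2 were higher and 5 lower.

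*URA1*, dihydroorotate dehydrogenase of pyrimidine synthesis, had 699, 644, 721 and 827 CPM in *eif2aΔ* and 1021, 963, 989 and 979 CPM in *wt*. The strains did not overlap, and *URA1* fell by 0.51 on the log2 scale (standard error 0.08, FDR 0.0197 by edgeR). Of 24 genes of pyrimidine and purine synthesis, this 1 was called, and 20 were negative with a median of -0.13. At an unadjusted p under 0.05, 1 was higher and 6 were lower. *URA4* (-0.37, FDR 0.101) and *URA2* (-0.31, FDR 0.116), which act before *URA1* in the pathway, did not pass, although neither overlapped between the strains. *URA1* was at 952 to 1053 CPM in the *tma46Δ* libraries and at 582 to 710 CPM in the *stm1Δ* libraries.

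Genes of carbon source use and stress were among the lower calls. *MDH2*, the cytosolic malate dehydrogenase of gluconeogenesis, had 117, 111, 110 and 125 CPM in *eif2aΔ* and 191, 188, 184 and 147 CPM in *wt*, without overlap, and fell by 0.59 on the log2 scale (standard error 0.09, FDR 0.0142 by edgeR). *HXT4*, a high-affinity glucose transporter, had 32.7, 18.6, 19.0 and 29.6 CPM in *eif2aΔ* and 40.1, 45.5, 46.5 and 39.2 CPM in *wt* (log2 fold change -0.87, standard error 0.16, FDR 0.0305). The other deletion strains were also below every *wt* library for *HXT4*, at 26.8 to 36.9 CPM in *tma46Δ* and 19.2 to 35.1 CPM in *stm1Δ*. *HXT* genes are similar in sequence, and reads that map to several genes were not counted. *HXT4* was the only call among 11 tested genes of hexose transport and glucose sensing. Of these 11, 7 were positive, the median was 0.021, and 2 were higher and 1 lower at an unadjusted p under 0.05 by edgeR. *HSP12*, a small membrane heat shock protein, had 44.2, 31.9, 50.7 and 24.8 CPM in *eif2aΔ* and 64.8, 135, 120 and 162 CPM in *wt*. It had the lowest log2 fold change of the called genes after *YGR054W*, at -1.65 (standard error 0.31, FDR 0.0305), with same-batch differences of -1.44 in batch 3 and -2.33 in batch 4. *HSP12* was at 30.3 to 109 CPM in *tma46Δ*, and its *eif2aΔ* change against *tma46Δ* was -0.86 (FDR 0.258). Of the 26 tested genes of stress-induced chaperones and detoxification, *HSP12* was the only one called lower and *YHB1* the only one called higher. In that list 14 were positive and 12 negative, with a median of 0.0091, and 2 were higher and 5 lower at an unadjusted p under 0.05. *SMF1*, a manganese transporter, had 61.9, 52.0, 54.7 and 67.0 CPM in *eif2aΔ* and 57.2, 82.0, 86.5 and 70.2 CPM in *wt* (log2 fold change -0.47, standard error 0.09, FDR 0.0286).

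Lists of the translation machinery held few calls. Of 138 genes of cytosolic ribosomal proteins 0 were called by edgeR, 114 were negative, 1 was higher and 7 were lower at an unadjusted p under 0.05, and the median was -0.067. That median was 0.0065 with no batch term, so its sign depends on the batch adjustment. Among the genes that missed the threshold was *RPS14B*, whose product is nearly identical to that of *RPS14A*, with 415, 459, 480 and 451 CPM in *eif2aΔ* and 333, 348, 293 and 382 CPM in *wt* (log2 fold change 0.41, standard error 0.08, FDR 0.0518). Of 31 translation initiation factors 0 were called (0 higher and 2 lower at an unadjusted p under 0.05) and the median was -0.023. Of 59 ribosome biogenesis genes 0 were called (1 higher and 2 lower at an unadjusted p under 0.05). Mitochondrial ribosomal protein genes were negative in 62 of 67 cases with a median of -0.18 and 0 calls, at 0 higher and 15 lower at an unadjusted p under 0.05. Without *eif2aΔ* replicate 2 or without *wt* replicate 4 that median was -0.094. *SBP1*, which encodes an mRNA-binding protein of processing bodies, had 482, 450, 485 and 498 CPM in *eif2aΔ* and 646, 646, 630 and 635 CPM in *wt*. It missed the threshold at -0.41 (standard error 0.08, FDR 0.0503), with no overlap between the strains.

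Histone genes were negative in 10 of 11 cases with a median of -0.24, and 0 were called (0 higher and 7 lower at an unadjusted p under 0.05). Of 34 genes of ergosterol and fatty acid synthesis 27 were positive with a median of 0.15, and 0 were called (12 higher and 3 lower at an unadjusted p under 0.05). *OLE1*, the fatty acid desaturase, had 817, 1365, 1392 and 652 CPM in *eif2aΔ* and 817, 630, 698 and 753 CPM in *wt* (0.59, FDR 0.105), and *HES1*, a sterol-binding protein, had 10.4, 47.7, 91.9 and 7.90 CPM in *eif2aΔ* and 13.8, 5.79, 8.93 and 13.9 CPM in *wt* (1.83, FDR 0.240). In both genes *eif2aΔ* replicates 2 and 3 were the highest of the 8 libraries, as they were for *ENB1*, *ARN1* and *FRE3*. These 2 replicates both exceeded all *wt* libraries in 23 of the 34 ergosterol and fatty acid genes and in 7 of the 14 reductive uptake genes.

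**Figure D4:**
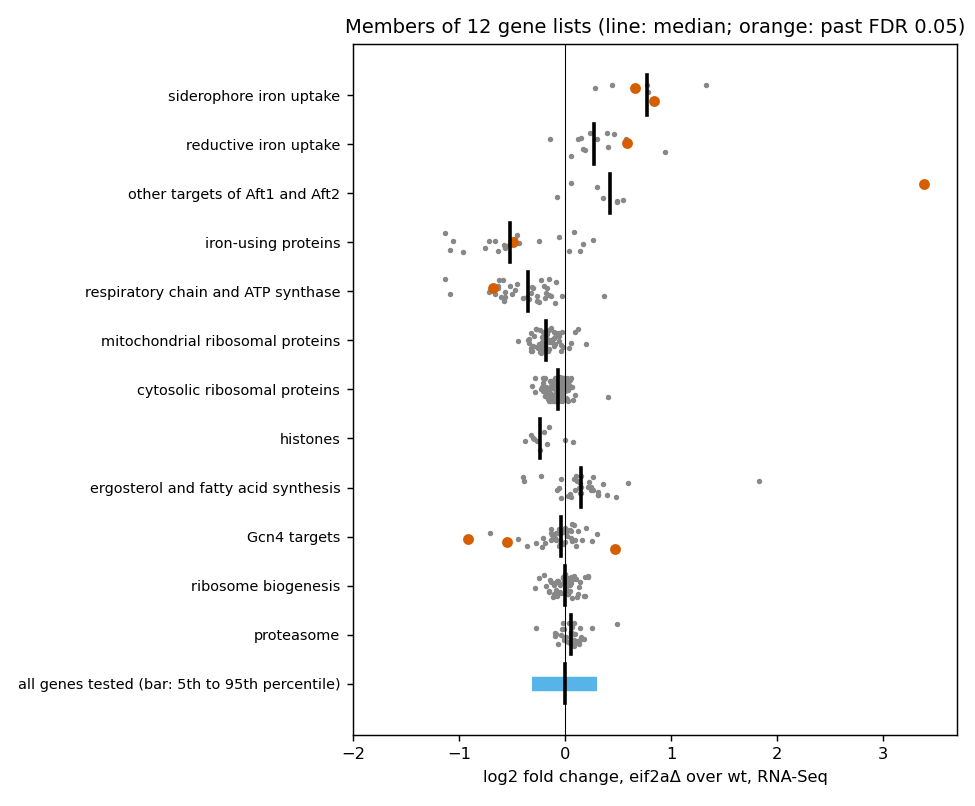
Log2 fold changes of *eif2aΔ* over *wt* in RNA-Seq (horizontal axis) for the tested members of 12 gene lists, 1 point per gene, with a black line at each median and the called genes in orange. The siderophore genes are centred at 0.77 and those of iron-using proteins at -0.52, against a median of 5.5e-05 for all genes, whose 5th to 95th percentile is the blue bar.

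The genes nearest to the threshold that did not pass were, among those with positive values, *RPS14B*, *MMT2*, *ZWF1*, *ATF1* and *FTR1*, and among those with negative values *SBP1*, *ALD4*, *YHR140W*, *MRA1* and *YDR133C*. *MMT2*, a mitochondrial iron exporter, had a log2 fold change of 0.50 (FDR 0.0518), and *ZWF1*, the first enzyme of the pentose phosphate pathway, one of 0.40 (FDR 0.0584). *ALD4*, mitochondrial aldehyde dehydrogenase, had 173, 146, 181 and 133 CPM in *eif2aΔ* and 183, 290, 258 and 249 CPM in *wt*, without overlap (-0.58, FDR 0.0518).

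The expression filter, which asks for 10 CPM in 4 or more libraries of each assay, left 4625 of the 6697 genes with an RNA-Seq read, and its condition on RNA-Seq alone left 5174. Without the filter, 31 of 6697 genes were higher (0.463%) and 26 lower (0.388%), among them all 21 genes above and 11 that the filter had removed. *HXT7*, a high-affinity glucose transporter nearly identical to *HXT6*, had 14.8, 4.06, 8.34 and 17.4 CPM in *eif2aΔ* and 27.2, 42.7, 30.3 and 39.7 CPM in *wt* (log2 fold change -2.03, standard error 0.39, FDR 0.0177 by edgeR). *ALP1*, a basic amino acid permease, had 14.1, 15.8, 14.1 and 11.1 CPM in *eif2aΔ* and 7.12, 8.27, 7.99 and 7.84 CPM in *wt* (0.99, FDR 0.0284). *POX1*, the acyl-CoA oxidase of peroxisomes, had 1.28, 1.71, 2.78 and 1.81 CPM in *eif2aΔ* and 2.89, 5.95, 5.87 and 6.02 CPM in *wt* (-1.61, FDR 0.0286). In these 3 genes all *eif2aΔ* libraries lay on one side of the *wt* libraries. *TIR2*, a cell wall mannoprotein like *TIP1*, had 13.9, 15.6, 12.6 and 13.1 CPM in *eif2aΔ* and 8.91, 9.42, 6.81 and 5.10 CPM in *wt* (1.02, FDR 0.0349). *MAL11*, a maltose transporter (0.73, FDR 0.0331), and *YAP6*, a transcription factor (0.95, FDR 0.0341), were also higher, and *SSP1*, a gene of meiosis (-1.36, FDR 0.0429), was lower.

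Ribo-Seq libraries of the same cultures gave a second readout of these genes, which is not an independent set of cultures. All 21 called genes had the same sign in Ribo-Seq, and 14 of them (7 higher and 7 lower) were called in the same direction there, against 1.84% of all genes called there in either direction, 0.778% higher and 1.06% lower. *EEB1* had a log2 fold change of -1.498 in Ribo-Seq and -0.91 in RNA-Seq, *FRE3* had 1.45 in Ribo-Seq and 0.59 in RNA-Seq, and *LSO1* had 3.29 in Ribo-Seq and 3.39 in RNA-Seq. *ENB1*, *YGL039W*, *ATP19*, *ARO3*, *SMF1*, *ARG1* and *COX6* were not called in Ribo-Seq, with FDR values of 0.165, 0.0617, 0.213, 0.0873, 0.383, 0.116 and 0.0633 by edgeR. *SBP1*, which just missed the threshold in RNA-Seq at -0.41, had 0.15 in Ribo-Seq (FDR 0.551).

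The *tma46Δ* strain of the same collection shared batch 3 and batch 5 with *eif2aΔ*. Against it, 9 of the 21 genes were called in the same direction, with 0.238% of all genes called (0.0865% higher and 0.151% lower). They were *TIP1* (0.52), *ENB1* (0.52), *ARO10* (0.60), *YGR054W* (-9.50), *EEB1* (-0.74), *MDH2* (-0.55), *URA1* (-0.49), *SMF1* (-0.47) and *ARG1* (-0.93), with log2 fold changes over *tma46Δ* in parentheses. These values share the *eif2aΔ* libraries with the comparison to *wt*, come from 1 model, and rest on *tma46Δ* libraries that also carry weight in that comparison. *YHB1* had 350 to 552 CPM in *tma46Δ*, and its change against that strain was 0.41 (FDR 0.115).

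**Figure D5:**
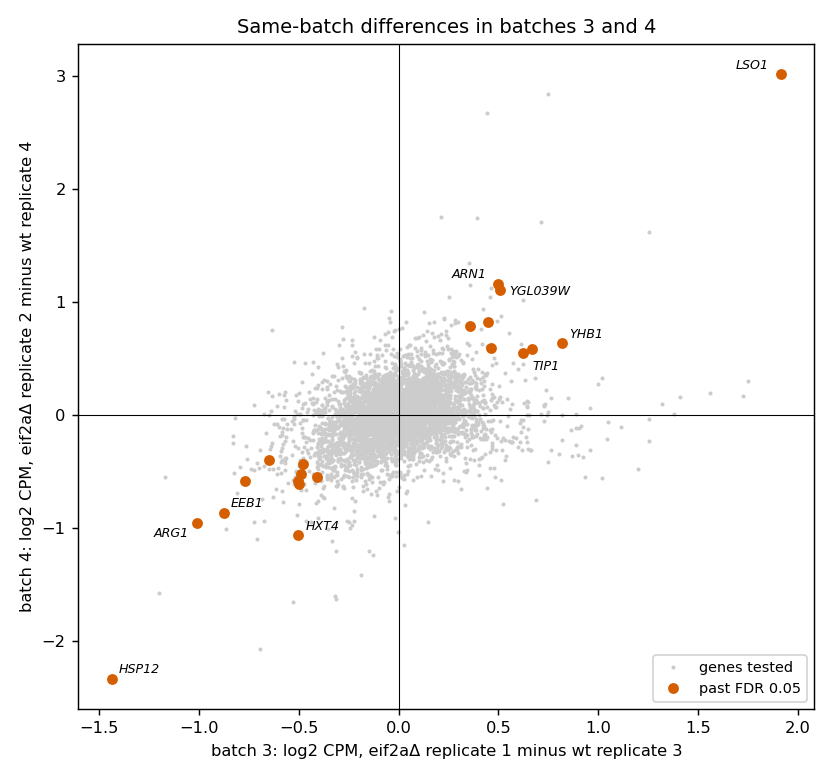
Difference in log2 CPM between *eif2aΔ* replicate 1 and *wt* replicate 3 in batch 3 (horizontal axis) and between *eif2aΔ* replicate 2 and *wt* replicate 4 in batch 4 (vertical axis), 1 point per gene tested except *YGR054W*, with the called genes in orange. All called genes lie in the upper right or lower left part, from *HSP12* (-1.44 and -2.33) to *LSO1* (1.92 and 3.02).

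The dependence on single libraries was large for part of the calls. Without *eif2aΔ* replicate 2 or without *wt* replicate 4, the same 4 genes remained of the 21: *YGR054W*, *YHB1*, *EEB1* and *MDH2*. Either omission leaves batch 3 as the only batch with both strains. Without *wt* replicate 1 or 2, *YGR054W*, *YHB1*, *EEB1*, *TIP1*, *ARO10* and *ENB1* remained, and without *wt* replicate 3, *YGR054W*, *YHB1*, *EEB1*, *ENB1* and *FRE3*. Without *eif2aΔ* replicate 1, 11 of the 21 remained, and without *eif2aΔ* replicate 3, 13 remained. With no batch term, *YGR054W*, *YHB1*, *EEB1*, *MDH2*, *TIP1*, *LYS20*, *URA1* and *ARG1* remained. *YGR054W* and *YHB1* were called under all 21 alternatives. *EEB1* was called under all but 1, where its FDR was 0.0525. The 21 alternatives are not all separate checks. Leaving out *eif2aΔ* replicate 4, which has no weight, repeats the main fit. The omissions of *eif2aΔ* replicate 2 and of *wt* replicate 4 compare the strains on the same libraries. So do the *eif2aΔ* and *wt* libraries with a batch term and the libraries of batches 3 and 4 alone.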

How the data were processed

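Reads were, by the study's methods, trimmed with cutadapt 2.10, cleared of rRNA reads with bowtie2 1.2.3, and mapped and counted with STAR 2.7.9a on the Ensembl R64-1-1 annotation. The authors deposited unnormalized counts per gene, and these counts were used here. The table of all libraries held the sense-strand counts, with unique reads only, and 0 of its columns were left unused. Of 7036 identifiers, 5956 matched a RefSeq locus tag for symbols and coordinates.

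Genes that reached 10 CPM in 4 or more libraries of each assay were tested in R 4.3.3 with edgeR 4.0.16 (glmQLFit and glmQLFTest, TMM, batch and strain as terms, 6 residual degrees of freedom, Benjamini-Hochberg FDR under 0.05 over 4625 genes). The study corrected batches with ComBat-seq before its test, which was an alternative here (sva 3.50.0). Other alternatives concerned batch, libraries, factors, filter, strand, DESeq2 1.42.0 and each replicate. Log2 CPM used a prior count of 2. Figures were drawn with matplotlib 3.10.9.

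The members and the gene lists were chosen with earlier results of these data known. Named were all called genes, the 5 genes per direction nearest the threshold, members of the lists described, and the neighbours of *YGR054W*. Of the 11 genes called only without the filter, some were named and not all. 5 list symbols had no match and were left out. Replicate pairs differed beyond sampling noise (chi-square per degree of freedom 5.20 to 26.2).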

Additional observations from a re-analysis of the deposited data

Results flagged for a closer look

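In groups of 4 libraries, a value was picked out when the gap between the highest or lowest library and its nearest neighbour was large relative to the range of the group, with the ratio above Dixon's 95% limit for 4 values, which chance passes in about 1 of 20 groups. Of 113 groups examined (total counts and the CPM of called and other named genes, per strain), 7 passed, which is near that rate. Of the 7, 5 were *wt* replicate 1. The groups are not independent, since genes that share a library order can pass together. *wt* replicate 1 was far above the other *wt* libraries for *LSO1* (29.6 CPM against 7.44, 3.05 and 7.47 CPM, ratio 0.834), *FRE3* (130 CPM against 89.1, 85.8 and 89.7 CPM, ratio 0.911) and *ARN2* (1267 CPM against 614, 577 and 655 CPM, ratio 0.886). It was far below them for *MRA1* (14.9 CPM against 28.8, 29.4 and 29.3 CPM, ratio 0.959), and for *POX1* (2.89 CPM against 5.95, 5.87 and 6.02 CPM, ratio 0.954). For *MDH2*, *wt* replicate 4 was the low one (147 CPM against 191, 188 and 184 CPM, ratio 0.836), and in total counts *eif2aΔ* replicate 1 was the high one (5567240 against 4555952, 4604355 and 4708903, ratio 0.849).

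*LSO1*, *FRE3* and *MDH2* were called. Without *wt* replicate 1, *LSO1* (FDR 0.0640 by edgeR) and *FRE3* (FDR 0.0745) were not among the 6 genes called. The loss was not particular to that library: *LSO1* was also lost without *wt* replicate 2, 3 or 4, and *FRE3* without *wt* replicate 2 or 4. *MDH2* stayed called without *wt* replicate 4 (FDR 0.0360).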

How the results depend on the processing

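The number of calls depended on the handling of batches and on the libraries in the fit. Against 21 genes called with batch as a term, of which 14 were also called in Ribo-Seq and 9 also against *tma46Δ*, ComBat-seq before the test gave 959, 332 and 631, with all 21 among them. The *eif2aΔ* and *wt* libraries alone gave 205 calls with batch as a term (87 also in Ribo-Seq) and 10 without it (9 also in Ribo-Seq), and the libraries of batches 3 and 4 alone gave 205 (75 also in Ribo-Seq). Both sets of 205 held all 21 genes, and the 10 held 6 of them. With a batch term, batches without both strains add nothing to the comparison of these strains. Both sets of 205 therefore rest on the libraries of batches 3 and 4 and are not separate results. Without the filter there were 57 calls (24 also in Ribo-Seq), and DESeq2 gave 63 (27 also in Ribo-Seq, 23 also against *tma46Δ*), with 4 of the 21 genes left without an adjusted p. The cause of these differences was not tested.

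Replicate numbers did not pair the strains: the deviations of same-numbered *eif2aΔ* and *wt* libraries correlated at -0.17, -0.19, -0.31 and -0.06. The same-batch pairs correlated at 0.24 in batch 3 and -0.10 in batch 4, and pairs that shared neither at up to 0.28. A replicate block in place of batch gave 20 calls, 8 of them also in Ribo-Seq, and kept 8 of the 21 genes.

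Leaving out 1 library gave 4 to 22 calls, 2 to 14 of them also in Ribo-Seq and 1 to 9 also against *tma46Δ*. RLE and upper-quartile factors, a filter on RNA-Seq alone and unstranded counts gave 21 to 25 calls and kept 20 or 21 of the 21 genes. None of the 21 genes changed sign under any of the 21 alternatives, some of which repeat the same comparison. List medians, an alternative chosen after seeing the data, ranged over these alternatives from 0.44 to 0.89 for siderophore uptake, 0.13 to 0.41 for reductive uptake, 0.19 to 0.59 for other targets of Aft1 and Aft2, -0.70 to -0.29 for iron-using proteins, -0.41 to -0.23 for the respiratory chain, -0.26 to -0.094 for mitochondrial and -0.11 to 0.01 for cytosolic ribosomal proteins, 0.11 to 0.22 for ergosterol and fatty acid synthesis, 0.18 to 0.45 for anaerobic genes and -0.28 to -0.15 for histones. With 6 residual degrees of freedom and 2 batches that hold both strains, smaller changes may have been missed at this depth, and genes of low level have few reads.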
